A study of Mus musculus with 16 samples.

Results

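Pax2, Pax3, Pax5, Pax6, Pax7 and Pax8 were taken by name from a table of 27807 genes measured by poly-A RNA sequencing while mouse embryonic stem (ES) cells were turned into neural precursors. All 6 names were found, once each, and all 6 had a mean of at least 10 normalised read counts, the minimum for testing. A normalised read count is the number of reads on a gene divided by a size factor of its library. There were 16 libraries in 8 groups of 2, that is 2 genotypes at 4 stages. WT libraries were labelled Taf4+/+. KO libraries were labelled Taf4-/- in one field and Taf4a-/- in another, the gene being that of a TFIID subunit, and TFIID is the complex that holds the TATA-binding protein at promoters. The stages were ES cells, kept on inactivated fibroblast feeders with LIF, and embryoid bodies before retinoic acid (EB4), after the first day of retinoic acid (EB5) and later in that treatment (EB8, labelled neural precursor cells). Both genotypes received the same retinoic acid treatment, and no untreated embryoid bodies of the EB5 or EB8 age were analysed here. The study used 2 independent lines of each genotype, the mutant ones from blastocysts that carried the null allele, and the labels do not tie a replicate number to a line. The p-values therefore measure the spread between these libraries, whether it comes from lines, cultures or handling. Same-numbered libraries deviated together among the KO groups and among the WT embryoid bodies, as given below. The main fit treated all libraries as independent, so its p-values do not allow for this link.

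Pax proteins are transcription factors with a paired DNA-binding domain. They fall into subgroups by sequence. Pax6 stands with Pax4 and marks the dorsal forebrain, the eye and broad parts of the neural tube. Pax3 and Pax7 mark the dorsal neural tube and later the neural crest and muscle precursors. Pax2, Pax5 and Pax8 mark the midbrain-hindbrain boundary and spinal interneurons, and outside the nervous system Pax2 and Pax8 act in the kidney, Pax8 in the thyroid and Pax5 in B cells. Retinoic acid, made by the mesoderm beside the neural tube, is one of the signals under which neural progenitors acquire their position, and Pax genes are among the standard readouts of that step.

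Since the mutated factor acts at core promoters, the bases just upstream of the transcription start are shown for 1 gene of each subgroup. They are from RefSeq (build GRCm38.p6) and are read 5' to 3' on the strand of the gene, each run being the 250 bases that end just before the annotated start. For Pax6, which had the highest level per length in WT EB8 libraries, the upstream one of 2 starts is given (chr2:105668646-105668895, plus strand). For Pax7 (chr4:139832969-139833218, minus strand) the capitals mark the only match to AGTTCA, a half-site of the direct repeats that retinoic acid receptors bind, here on the opposite strand and 179 bases before the start. Pax5 (chr4:44710695-44710944, minus strand) had the largest difference between genotypes at EB8.
Pax6: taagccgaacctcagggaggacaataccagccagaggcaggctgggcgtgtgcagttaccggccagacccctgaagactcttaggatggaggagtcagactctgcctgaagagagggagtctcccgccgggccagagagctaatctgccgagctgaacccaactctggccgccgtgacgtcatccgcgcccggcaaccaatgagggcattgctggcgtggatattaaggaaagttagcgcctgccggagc
Pax7: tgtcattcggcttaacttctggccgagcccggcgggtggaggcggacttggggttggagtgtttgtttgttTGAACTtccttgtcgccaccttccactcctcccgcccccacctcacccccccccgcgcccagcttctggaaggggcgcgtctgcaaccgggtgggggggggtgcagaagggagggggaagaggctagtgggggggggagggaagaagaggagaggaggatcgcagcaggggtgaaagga
Pax5: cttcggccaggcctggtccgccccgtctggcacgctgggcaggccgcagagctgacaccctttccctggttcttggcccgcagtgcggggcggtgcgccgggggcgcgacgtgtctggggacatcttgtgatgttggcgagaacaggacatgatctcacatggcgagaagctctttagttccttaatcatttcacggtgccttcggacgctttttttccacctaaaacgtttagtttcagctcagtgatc
The table held 8 starts for 5 of the 6 genes, namely 3 for Pax2, 2 for Pax6 and 1 each for Pax5, Pax7 and Pax8. None of the 8 windows held a TATAAA, on either strand, beginning between 40 and 20 bases before the start, and 2.50% of the 32851 windows of that length in the table did. AGGTCA, the other half-site, was in 0 of the 8 windows and AGTTCA in 1, on either strand, against 14.0% and 11.8% of all windows. The 8 windows held between 5 and 25 CpG dinucleotides, against a median of 6, and 47.6% to 72.8% G and C, against a median of 52.4%. A match or its absence describes the letters of these windows and is no measure of binding.

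Depth ran from 22442118 to 40711826 reads in genes per library, recovered from the steps of the normalised values, and all 4 ES libraries were deeper than the embryoid bodies, so stage and depth cannot be told apart in comparisons with ES cells. The Taf4a gene itself had 1591 to 1960 normalised read counts in WT, against 1973 to 2400 in KO libraries, and as the study's null allele lacks only part of the exons, a count over the whole gene is no check of the labels and the genotypes are used as labelled. Summed over the 5 pluripotency markers Pou5f1, Nanog, Zfp42, Esrrb and Klf4, WT libraries went from 48225 to 69208 normalised read counts in ES cells to 1225 to 1274 at EB8, whereas KO libraries at EB8 still had 18155 to 19788. Summed over the neural markers Nes, Tubb3 and Dcx, which do not include Sox1 and Map2 (not analysed here), the EB8 libraries had 19895 to 22295 with the WT label, against 3447 to 3672 with the KO label. Of these markers, Dcx (log2 change -6.30, limma adjusted p = 0.000445) and Tubb3 (-3.78, 1.01e-05) were called lower in KO at EB8. Nes was not called (-1.63, limma adjusted p = 0.0582), with 12104 and 7454 in WT and 2831 and 3312 in KO. The summed levels thus separate the genotypes at EB8, as the Pax genes do, but they were apart earlier as well. The pluripotency sum was 75270 to 79021 in KO ES cells, above WT. At EB4 it was 42937 to 55850 in KO against 16104 to 31977 in WT, and at EB5 23525 to 36369 against 6233 to 8709. The neural sum overlapped in ES cells and was 4491 to 5380 in KO EB4 against 8160 to 9717 in WT EB4, although Tubb3 alone was higher in KO there. The part of these sums in the Pax results was not tested. In bulk RNA, fewer cells that express a gene and less RNA in each cell cannot be told apart, which holds for every value that follows. Libraries also differed in the median level of whole chromosomes, relative to the library median. On the log2 scale it ran from -0.12 to 0.43 for chromosome 8, -0.12 to 0.22 for chromosome 11 and -0.20 to 0.56 for X. Chromosome 8 was high in replicate 1 of WT EB4, EB5 and EB8 (0.38 to 0.43), and chromosome 11 in replicate 1 of every KO group (0.15 to 0.22). X was high in replicate 2 of every KO group and of WT ES (0.36 to 0.56). The cause of these shifts was not tested. For chromosomes 1, 2, 4 and 19, which carry the 6 Pax genes, the median stayed between -0.07 and 0.08 in every library.

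Pax6 (ENSMUSG00000027168, chr2:105509053-105543317 of NCBI37, plus strand), which sets up the dorsal forebrain and the eye, was the one gene of the 6 that in every ES library had more reads than each of the other 5. In the WT libraries its normalised read counts were 187 and 74.9 in ES cells, 235 and 131 at EB4, 2855 and 6135 at EB5 and 5447 and 5317 at EB8. In the KO libraries they were 271 and 179, then 123 and 131, then 696 and 278, and at EB8 838 and 361. WT libraries were high at EB5 and EB8 and low before, the KO libraries overlapped WT before retinoic acid, and from EB5 both KO libraries lay below both WT libraries. The WT means at EB8 and EB5 (5382 and 4495) did not differ beyond their spread, and neither did the KO means at EB8 and EB5 (599 and 487), while the 4 groups without retinoic acid (127 to 225) overlapped one another in order of level.

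Pax3 (ENSMUSG00000004872, chr1:78097842-78193709, minus strand) and Pax7 (ENSMUSG00000028736, chr4:139292977-139389445, minus strand) are the pair of the dorsal neural tube. Pax3 had 13.7 and 16.7 normalised read counts in WT ES cells, 11.0 and 20.4 at EB4, 280.4 and 470.0 at EB5 and 1447 and 1373 at EB8. In KO libraries it had 2.49 and 4.29, then 7.01 and 10.2, then 67.3 and 48.5, and at EB8 79.1 and 33.0. The KO values lay below the WT values at all 4 stages without overlap, and KO EB8 overlapped KO EB5. Pax7 had 1.82 and 5.58 in WT ES cells, 4.38 and 2.14 at EB4, 55.5 and 59.3 at EB5 and 793 and 1012 at EB8. In KO libraries it had 2.49 and 3.57, then 8.18 and 12.8, then 35.1 and 25.2, and at EB8 74.9 and 21.3. Pax7 differed from Pax3 in that its KO values at EB4 were above those of WT, although of a few reads only, and at EB5 they were below by a margin small beside the later gap. WT EB5, KO EB8 and KO EB5 were neighbours in the order of Pax7 levels (57.4, 48.1 and 30.1) and each overlapped the next.

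Pax2, Pax5 and Pax8 form the third subgroup. Pax2 (ENSMUSG00000004231, chr19:44830539-44912758, plus strand), needed for the optic stalk, the midbrain-hindbrain boundary and the kidney, had 0.91 and 13.6 normalised read counts in WT ES cells, 1.10 and 12.9 at EB4, 36.7 and 40.6 at EB5 and 926 and 1506 at EB8. In KO libraries it had 17.4 and 15.0, then 10.5 and 7.66, then 37.0 and 34.9, and at EB8 185 and 82.0. The 4 libraries at EB5 held nearly the same amount, and the genotypes came apart at EB8. In WT ES cells and EB4, replicate 1 was close to 1 read and replicate 2 was not, so the spread of Pax2 was the widest of the 6 (SE 0.93 of a log2 difference between groups, against 0.51 to 0.70).

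Pax5 (ENSMUSG00000014030, chr4:44544017-44724318, minus strand), a regulator of the boundary region and of B cell commitment, had the lowest level per length of the 6 in both genotypes at EB5 and EB8. In WT libraries it had 3.64 and 3.19 normalised read counts in ES cells, 14.2 and 3.22 at EB4, 10.4 and 6.59 at EB5 and 161 and 235 at EB8. In KO libraries it had 1.66 and 2.86, then 1.17 and 1.28, then 1.90 and 1.94, and at EB8 6.33 and 2.13. The KO libraries at EB4 and EB5 held at most 2 reads of Pax5 each, at or under the floor of 3 reads, and fitted changes against those groups depend on the added count and are no bounds. At EB8 there were 375 reads in WT and 8 in KO, a ratio of normalised levels of 46.6 with an exact 95% interval of 23.4 to 109 that covers counting error only.

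Pax8 (ENSMUSG00000026976, chr2:24276071-24331119, minus strand), which acts in kidney and thyroid and with Pax2 in the hindbrain, had 16.4 and 15.1 normalised read counts in WT ES cells, 12.1 and 15.0 at EB4, 35.8 and 12.1 at EB5 and 387 and 528 at EB8. In KO libraries it had 19.1 and 35.0, then 32.7 and 60.0, then 20.9 and 17.5, and at EB8 16.9 and 55.4. Only the WT EB8 libraries stood out. Among the KO libraries the highest mean was at EB4 (46.3), and the KO groups at EB4, EB8 and ES overlapped in order of level. The KO libraries lay above the WT libraries in ES cells and at EB4.

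**Figure D1:**
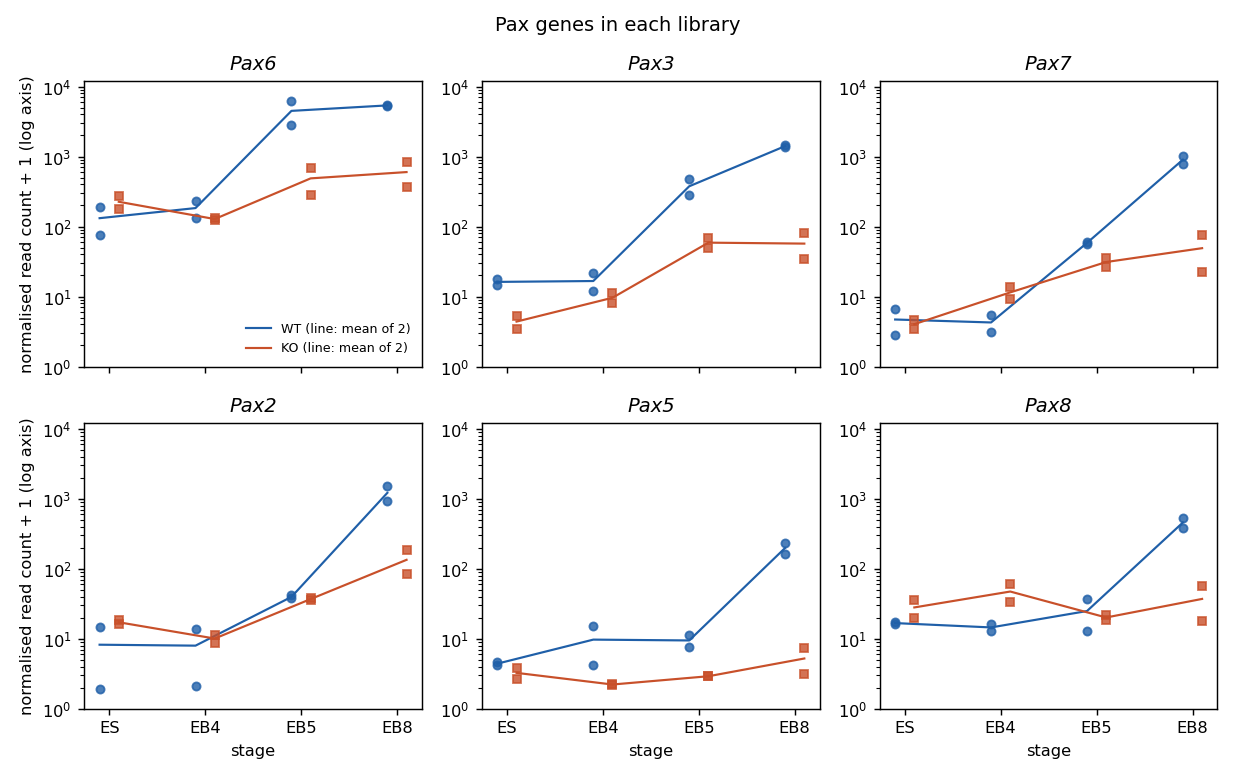
Normalised read count plus 1 (log axis) of the 6 genes in each of the 16 libraries by stage, circles for WT, squares for KO, lines through the means of 2 libraries. The gap between WT and KO points is wide at EB5 for Pax6 and Pax3 and at EB8 for all 6 genes.

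How the 6 genes were induced in WT was asked first. No member was called from ES to EB4 in WT (0 of 6, limma adjusted p of 0.430 to 0.991, 0 at an unadjusted p under 0.05, 0 with DESeq2 or edgeR), while 16.5% of the 16124 genes tested were called in either direction. On the first day of retinoic acid 3 of 6 rose, against 2.59% of all genes tested. These were Pax6 (24.6-fold in the means, log2 change 4.57 ± 0.57 SE, adjusted p = 0.000589), Pax3 (23.9-fold, 4.51 ± 0.51, adjusted p = 0.000338) and Pax7 (17.6-fold, 3.83 ± 0.64, adjusted p = 0.00469). The Pax7 call was lost without WT EB5 replicate 2 (adjusted p = 0.0525). Pax2 had a log2 change of 2.88 ± 0.93 that did not pass (adjusted p = 0.134), but did with replicate numbers as a block within genotype (adjusted p = 0.0312), without WT EB4 replicate 2 (0.0360) and with DESeq2 (0.0325). Pax5 and Pax8 had means of 8.47 and 23.9 normalised read counts at EB5, against 8.73 and 13.5 at EB4, and overlapped between these stages.

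From EB5 to EB8 in WT the remaining genes followed. A rise was called for 5 of 6, against 5.82% of all genes tested, and the exception was Pax6 (log2 change 0.36, 95% interval -0.87 to 1.59, adjusted p = 0.758). Pax2 rose 31.4-fold (log2 change 4.90 ± 0.93, adjusted p = 0.00608), Pax5 23.4-fold (4.40 ± 0.70, adjusted p = 0.00240), Pax8 19.1-fold (4.37 ± 0.63, adjusted p = 0.00135) and Pax7 15.7-fold (3.94 ± 0.64, adjusted p = 0.00248). Pax3 rose again, 3.76-fold (1.95 ± 0.51, adjusted p = 0.0298). The Pax3 call was lost without WT EB5 replicate 1 (adjusted p = 0.230), WT EB8 replicate 1 (0.126) or WT EB8 replicate 2 (0.132), and that of Pax2 without WT EB5 replicate 1 (0.0506) or WT EB8 replicate 2 (0.0569). As a share of the WT EB8 mean, Pax6 stood at 83.5% at EB5, Pax3 at 26.6% and Pax7 at 6.36%, whereas Pax8, Pax5 and Pax2 stood at 5.22%, 4.28% and 3.18%. Over the whole treatment, EB8 against EB4, all 6 rose in WT, by 22.7-fold for Pax5 to 276-fold for Pax7 in the means, against 15.0% of all genes tested.

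**Figure D2:**
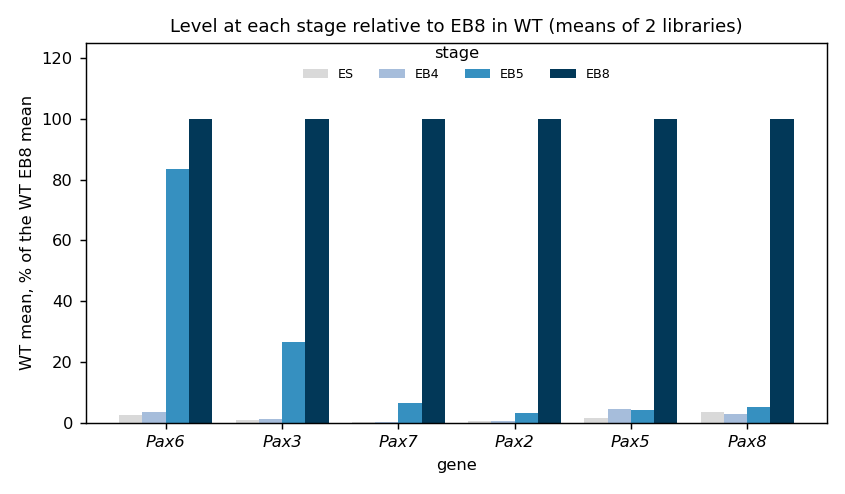
WT means of 2 libraries at each stage as a percentage of the WT EB8 mean, for the 6 genes, bars for ES, EB4, EB5 and EB8. Pax6 is near its EB8 level at EB5 (83.5%), Pax3 is at 26.6%, and the other 4 are at 3.18% to 6.36%.

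In KO the same steps gave fewer calls. From ES to EB4, 0 of 6 were called (2 at an unadjusted p under 0.05, 0 with DESeq2 or edgeR), against 3.5% of all genes tested. On the first day of retinoic acid Pax3 rose (6.73-fold, log2 change 2.62 ± 0.51, adjusted p = 0.0183), 1 of 6 against 1.82% of all genes. That call was lost whichever of the KO EB4 or EB5 libraries was left out (adjusted p of 0.0646 to 0.144). Pax6 had a log2 change of 1.79 ± 0.57 that passed with DESeq2 (adjusted p = 0.0121) and not with limma (adjusted p = 0.129). From EB5 to EB8, 0 of 6 changed (limma adjusted p of 0.480 to 0.9501, 0 at an unadjusted p under 0.05, 0 with DESeq2 or edgeR), against 0.738% of all genes. Over the whole treatment 3 of 6 rose in KO, against 9.86% of all genes, namely Pax2 (14.7-fold, log2 change 3.64 ± 0.93, adjusted p = 0.0189), Pax3 (6.51-fold, 2.46 ± 0.51, adjusted p = 0.00679) and Pax6 (4.72-fold, 2.11 ± 0.57, adjusted p = 0.0232). Without KO EB8 replicate 1, which had the higher value of all 3 genes, none of them passed (adjusted p of 0.122, 0.0663 and 0.172), and Pax2 and Pax6 also failed without KO EB4 replicate 1 (0.0622 and 0.0939) or replicate 2 (0.0979 and 0.0903). Pax7 (1.87 ± 0.64, adjusted p = 0.0590) missed the threshold in limma and passed with edgeR (adjusted p = 0.0288), with DESeq2 (0.00534), with a pseudocount of 5 (0.0413) and without KO EB8 replicate 2 (0.0281), while Pax8 was at 0.780 of its EB4 mean.

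The genotypes were then set against each other at each stage. At EB8 all 6 genes were lower in KO, against 12.5% of all genes tested, and both KO libraries lay below both WT libraries for all 6, an order held by 33.5% of all genes. The KO mean was 2.14% of the WT mean for Pax5 (log2 change -5.35 ± 0.70, adjusted p = 0.000351), 3.98% for Pax3 (-4.76 ± 0.51, adjusted p = 0.000110) and 5.33% for Pax7 (-4.45 ± 0.64, adjusted p = 0.000564). It was 7.89% for Pax8 (-3.84 ± 0.63, adjusted p = 0.00132), 11.0% for Pax2 (-3.25 ± 0.93, adjusted p = 0.0250) and 11.1% for Pax6 (-3.29 ± 0.57, adjusted p = 0.00166). The median of the 6 was -4.14 on the log2 scale, beside -0.03 over all genes tested. The call for Pax2 was lost when any 1 of the 4 EB8 libraries was left out (adjusted p of 0.0508 to 0.147), while the other 5 kept theirs.

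At EB5, after a day of retinoic acid, 2 of 6 were lower in KO, against 2.17% of all genes tested. Pax6 was at 10.8% of WT (log2 change -3.25 ± 0.57, adjusted p = 0.0133) and Pax3 at 15.4% (-2.65 ± 0.51, adjusted p = 0.0182). Both calls were lost without WT EB5 replicate 2 (adjusted p = 0.114 for Pax6 and 0.144 for Pax3) or without KO EB5 replicate 2 (0.200 and 0.225). Both KO libraries lay below both WT libraries also for Pax5 (-1.67, adjusted p = 0.201) and Pax7 (-0.92, adjusted p = 0.446), so for 4 of 6, an order held by 28.1% of all genes. Pax2 libraries overlapped, with a log2 change of -0.10 and a 95% interval of -2.13 to 1.92, and Pax8 was at -0.13 with an interval of -1.51 to 1.25.

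Before retinoic acid no member was called. At EB4 it was 0 of 6 in limma (3 at an unadjusted p under 0.05, 0 with DESeq2 or edgeR), against 6.12% of all genes in either direction. The 3 were Pax8 (342% of the WT mean, log2 change 1.65, adjusted p = 0.143) and Pax7 (321%, 1.45, adjusted p = 0.197), both higher in KO, and Pax5 (-1.85, adjusted p = 0.138). In ES cells it was 0 of 6 (1 at an unadjusted p under 0.05, 0 with DESeq2 or edgeR), and 0.0% of all genes were called by limma and 0 by edgeR, against 476 genes by DESeq2. The 1 was Pax3, at 22.3% of the WT mean in KO (log2 change -1.91, adjusted p = 0.154). Summed over 7 fibroblast markers (Col1a1, Col1a2, Col3a1, Dcn, Lum, Postn and Thy1), WT ES libraries had 1033 to 2650 normalised read counts and KO ES libraries 209 to 494, and the part of feeder cells in the Pax3 value was not tested.

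**Figure D3:**
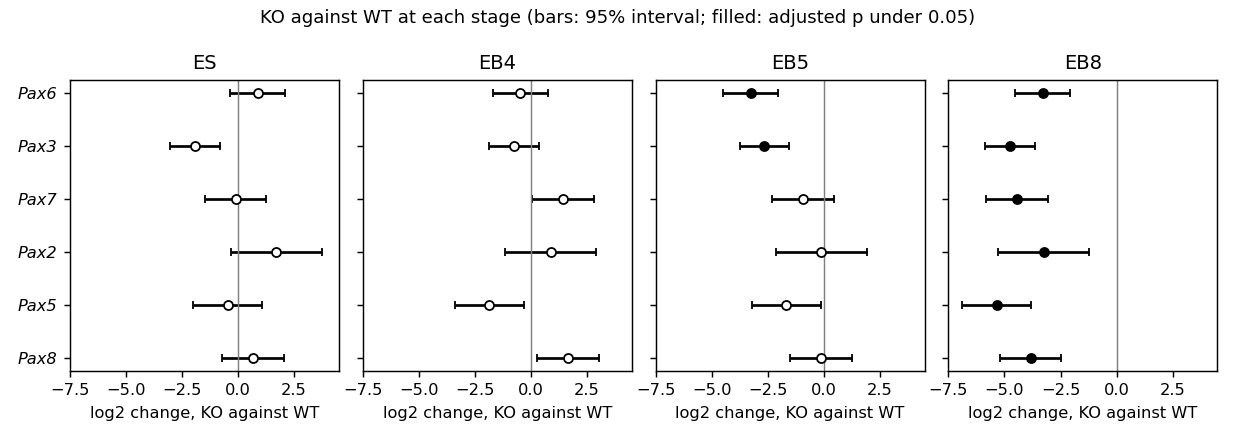
Log2 change of KO against WT for the 6 genes at each stage, with 95% intervals from the limma fit, filled where the adjusted p was under 0.05. Filled points are Pax6 and Pax3 at EB5 and all 6 genes at EB8, all to the left of 0.

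Whether the change over time itself differed between genotypes was tested as a difference of differences. From EB4 to EB8 the change was smaller in KO for 3 of 6, against 1.71% of all genes tested in that direction. These were Pax7 (difference in log2 change -5.90 ± 0.90, adjusted p = 0.00899), Pax8 (-5.48 ± 0.90, adjusted p = 0.0105) and Pax3 (-4.00 ± 0.72, adjusted p = 0.0140). Pax2 (-4.14 ± 1.32, adjusted p = 0.126), Pax5 (-3.498 ± 0.996, adjusted p = 0.0891) and Pax6 (-2.83 ± 0.80, adjusted p = 0.0868) did not pass. Without WT EB8 replicate 2 only Pax7 passed (adjusted p = 0.0501 for Pax8 and 0.0568 for Pax3), Pax3 was lost also without KO EB4 replicate 2 (0.0551), and Pax5 passed without WT EB4 replicate 1 (0.0488). With replicate numbers as a block within genotype 5 of 6 passed, Pax2 (0.0326) and Pax6 (0.0423) being added.

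Cut at EB5, neither step alone gave a call. For the first day of retinoic acid it was 0 of 6 (3 at an unadjusted p under 0.05, 0 with DESeq2 or edgeR) with 0.0% of all genes called. For EB5 to EB8 it was 0 of 6 in limma (5 at an unadjusted p under 0.05, 0 with edgeR, 3 with DESeq2), against 0.781% of all genes, the exception being Pax6 at -0.04 with a 95% interval of -1.78 to 1.696. The smallest adjusted p was that of Pax8 (-3.71 ± 0.90, adjusted p = 0.0916). For ES to EB4, where no retinoic acid was given, it was 0 of 6 (0 at an unadjusted p under 0.05, 0 with DESeq2 or edgeR), with 0.0% of all genes called.

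**Figure D4:**
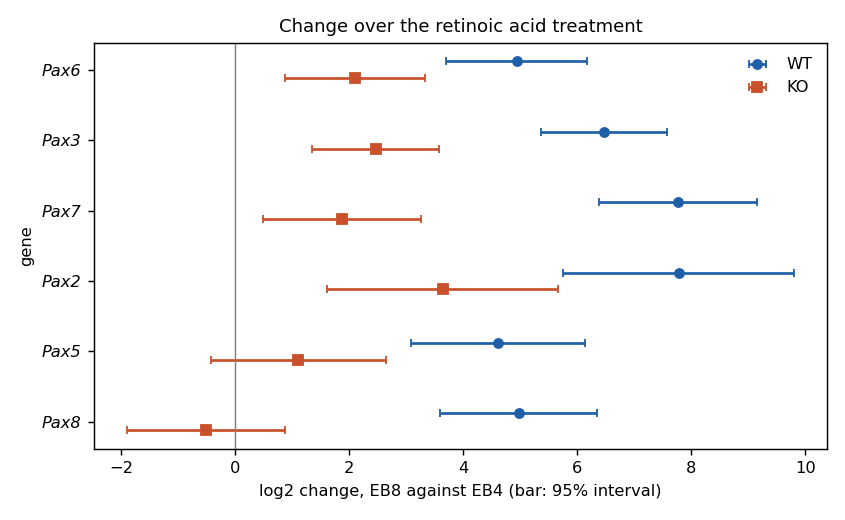
Log2 change from EB4 to EB8 of the 6 genes in WT (circles) and KO (squares), with 95% intervals from the limma fit. The WT changes lie between 4.61 and 7.78 and the KO changes between -0.51 and 3.64, with the narrowest gap for Pax6 and the widest for Pax7.

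Levels of different genes can be compared only per length. Per kilobase of the longest coding transcript, the mean level at WT EB8 fell in the order Pax6 (641 normalised read counts per kb), Pax3 (365), Pax2 (255), Pax8 (178), Pax7 (154) and Pax5 (76.8). At WT EB5 Pax6 (535) was followed by Pax3 (97.1), and each of the other 4 was below 10. Pax6 thus made up 80.7% of the summed level per kb at WT EB5 and 38.4% at WT EB8. At EB8 the other 5 genes were all higher per kb than at EB5, Pax3 by the widest margin with this length. With the length of all exons together, Pax2 had the widest margin (6.66 to 210, against 60.6 to 228 for Pax3). In KO at EB8 the order began with Pax6 (71.4), Pax2 (27.9) and Pax3 (14.5), the last of which was second in WT, and Pax6 made up 51.8%. At KO EB4 Pax8 (18.0) stood above Pax6 (15.1), the one group of the 8 in which Pax6 was not first by mean. That order came from replicate 2 (23.3 for Pax8 and 15.6 for Pax6), as in replicate 1 Pax6 was above Pax8 (14.6 and 12.7). With the length of all exons together, which for Pax6 is 19833 bases against 3424 to 6187 for the others, the Pax6 shares were 73.1% at WT EB5, 27.2% at WT EB8 and 38.9% at KO EB8, Pax8 and Pax7 changed places at WT EB8, and Pax6 was again first in all groups but KO EB4.

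The library kit does not mark strand, so reads of a gene and of a partner on the other strand cannot be told apart where they overlap. Pax6 shares exon bases with the end of Elp4, which had 346 to 808 normalised read counts over the 16 libraries and was 460 and 572 in KO EB8 against 747 and 782 in WT EB8. The antisense transcript Pax6os1, which lies across the start of Pax6 with no shared exon, was listed at 3.76 and 11.0 in WT EB5, 13.7 and 28.6 in WT EB8 and at most 2.11 in every KO library. It was thus present where Pax6 was high. The overlapping transcripts of Pax5 (Gm12462), Pax8 (Gm13415) and Pax2 (1700039E22Rik) reached at most 9.53, 10.2 and 14.7, far under the WT EB8 level of their partners. Gm13415, which shares exon bases with Pax8, had its highest values in the KO EB4 libraries (8.18 and 10.2, against 0 and 1.07 in WT EB4), where Pax8 was 32.7 and 60.0, and its part in those Pax8 values was not tested.

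Among the remaining Pax genes, Pax9 was tested and not called at EB8 (WT libraries 39.9 and 44.5, KO libraries 21.1 and 17.0, log2 change -1.11, adjusted p = 0.279), Pax1 was too low to be tested and Pax4 was not analysed here. Eya and Dach proteins and the sine oculis homologues work with Pax proteins in a shared network of organ formation. Of 11 such genes tested, 0 were higher and 5 lower in KO at EB8 (median log2 change -1.22), against 12.5% of all genes tested being lower. These were Eya4, Six6, Dach1, Eya1 and Six5, among them the transcription cofactor Eya4 at 482 and 1212 in WT against 58.0 and 37.3 in KO (-4.01, adjusted p = 0.00203). Of 15 factors that pattern the progenitor domains of the neural tube, 0 were higher and 11 lower (median -3.83), against the same 12.5% and beside the 6 of 6 Pax genes. The homeobox gene Dbx1 had 4360 and 3448 in WT EB8 libraries, while KO EB8 had 0 and 2.13, a group at the floor of 3 reads, and Msx3, a homeobox gene of the dorsal neural tube, had 1728 and 1649 against 9.496 and 2.13 (-8.20, adjusted p = 4.27e-05).

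Genes of the midbrain-hindbrain boundary, where Pax2, Pax5 and Pax8 act, did not follow as a group. Of 7 tested, 0 were higher and 1 lower in KO at EB8 (median -0.02), against 12.5% of all genes tested being lower. The 1 was the signal Wnt1 (611 and 2125 in WT, 79.1 and 5.33 in KO, -5.66, adjusted p = 0.00531). En2 read 55.7 and 85.8 for the WT pair against 112 and 41.5 for the KO pair, and Gbx2 370 and 699 against 247 and 177 (adjusted p of 0.994 and 0.301). Part of the list had little room to be lower in KO. The WT EB8 libraries had only 0 and 7.41 of Fgf8 and 23.1 and 6.35 of En1. Otx2 was at 44.1 and 178 there, after 7163 and 6070 in WT EB4. Of 7 genes of the neural plate border and crest, which Pax3 and Pax7 help to specify, 1 was higher, Sox10, and 2 were lower, Zic1 and Foxd3 (median -0.81). Of 4 direct readouts of retinoic acid (Rarb, Hoxb1, Cyp26a1 and Dhrs3), all 4 rose from EB4 to EB5 whatever the genotype, against 2.59% of all genes tested in WT and 1.82% in KO. At EB8 0 were higher and 2 lower in KO (median -0.55). The 2 were the receptor gene Rarb (5798 and 7403 in WT, 1461 and 1487 in KO, -2.15, adjusted p = 0.0123) and the reductase gene Dhrs3 (-1.09, adjusted p = 0.0372). Hoxb1 lay the other way, with 1044 and 601 for the WT pair and 4478 and 3351 for the KO pair, and did not pass (2.29, adjusted p = 0.0698). From EB4 to EB8 all 4 rose as well, in WT as in KO, against 15.0% and 9.86% of all genes tested. Over all 16124 genes tested at EB8, 1677 were higher and 2020 lower (12.5%).

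Pax genes also serve outside the neural tube, and markers of those tissues were read in the same libraries. Of 6 nephric genes, 0 were higher and 3 lower in KO at EB8 (Lhx1, Sall1 and Osr1), against 12.5% of all genes tested being lower. Wt1 was 1286 and 1921 in WT against 1104 and 2084 in KO. Their summed level was 9571 to 11835 for WT EB8, beside 3271 to 3962 for KO EB8. It was thus lower in KO at EB8, as Pax2 and Pax8 were. Before retinoic acid it was 3834 to 6823 in WT ES and 6006 to 7796 in KO EB4 libraries. Most of that was Sall1 (3426 and 6395 in WT ES, 5318 and 7326 in KO EB4), so the sum hides the course of the other genes. From EB4 to EB8, 5 of the 6 genes rose in WT, against 15.0% of all genes tested. In KO 3 rose, against 9.86%, and 1 fell. The part of these genes in the EB8 values of Pax2 and Pax8 was not tested. The 6 thyroid genes summed to 199.5 to 204 in WT EB8 libraries, beside 216 to 371 for KO EB8. B cell genes went both ways, with Cd79a and Cd79b higher and Ebf1 lower in KO EB8. The skeletal muscle list reached at most 10.4 in any library, with Myf5 and Myf6 at or under 3 reads in every library, beside 793 and 1012 of Pax7 in WT EB8. The lens and retina list reached at most 62.1, summed over its genes. Of 5 islet names 2 were found, and 1 was tested, Sst, the gene of a hormone that neurons also make. It was lower in KO at EB8 (-5.69, adjusted p = 0.00179), and the islet sum was 342 to 599 for WT EB8, beside 4.26 to 44.3 for KO EB8. The fibroblast markers summed to 2104 to 2773 in WT EB8 libraries, beside 877 to 3137 for KO EB8.

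Over the 16 libraries, the correlation of log2(normalised read count + 1) was used to name the 3 genes most like each member, as a description, since the libraries share stages and genotypes. Pax3 was most like Wnt1 (r = 0.966), Irx3 (0.964), another progenitor factor of the list above, and the hedgehog co-receptor gene Boc (0.962). Pax6 was most like Ildr2 (0.957), Mir219-2 (0.955) and Slitrk1 (0.947), and Pax7 like A830082K12Rik (0.957), Habp4 (0.954) and Tshz3 (0.953). Pax5 was most like Hk3 (0.976), the glutamate receptor gene Gria1 (0.961) and Celsr2 (0.957), and Pax2 like Ing4 (0.959), Usp49 (0.946) and Os9 (0.945). Pax8 had the lowest first value, with St18 (0.941), Cxcl15 (0.916) and Lrrn3 (0.903). The correlation takes no account of the size of a change. Ing4 had 1660 and 2150 in WT EB8 against 1467 and 1387 in KO EB8, where Pax2 had 926 and 1506 against 185 and 82.0. Hk3, in contrast, had 748 and 917 in WT EB8 against 6.33 and 2.13 in KO EB8. No member was among the 3 most like another. Between members the highest values were those of Pax3 with Pax7 (0.922), the pair of 1 subgroup, and Pax3 with Pax6 (0.915), and the lowest was that of Pax6 with Pax8 (0.521). Within the third subgroup the values were 0.689 for Pax2 with Pax5, 0.746 for Pax2 with Pax8 and 0.755 for Pax5 with Pax8.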

How the data were processed

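Poly-A RNA of 16 libraries was analysed. Per the labels, the submitters' processing notes name CASAVA 1.7 and 1.8, TopHat2 2.0.10, HTSeq 0.5.4p3, DESeq2 1.0.19 and build mm9; annotation and strand setting are not given in the sources used here. The deposited values are a normalised signal, the authors' read counts divided by a size factor of each library. Dividing by the step of each library turned 100% of values into whole reads (within 0.1 reads); floors (3 reads) and intervals cover counting error only.

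The main test was limma 3.58.1 on log2(normalised count + 1), which understates changes of low genes, with 8 group means over 16 libraries, a trended eBayes prior, genes with a mean of at least 10 (16124) and Benjamini-Hochberg adjustment over them at 0.05. It was tested on simulated data. SE are of log2 differences. edgeR 4.0.16 and DESeq2 1.42.0 (R 4.3.3) on recovered reads were alternatives, with pseudocounts, filters, rescalings, replicate blocks and left-out libraries. EB8 against EB4 was added after the values were seen. Same-numbered libraries deviated together among all KO groups (r of 0.23 to 0.42) and among the WT embryoid bodies (0.52 to 0.61). They did not between WT ES and the later WT groups (-0.18 to -0.05), nor between genotypes at EB4, EB5 or EB8 (-0.21 to -0.06). WT ES libraries did deviate with same-numbered KO libraries at ES (0.33), EB4 (0.28) and EB5 (0.37), and hardly at EB8 (0.06). The block within genotype is given where it changed a call. No 2 libraries were near-identical. Positions are from GENCODE M1 on NCBI37, in which 27603 identifiers were found. Named genes were the 6 Pax genes, the 3 most correlated with each, and members of lists, of which 2 genes are not reported here and are left out of the counts; members and lists were chosen with earlier results of these data known. Python 3.11.15 was used for the rest.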

Additional observations from a re-analysis of the deposited data

Results flagged for a closer look

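For 3 of the 6 genes a test of the difference itself found that the change from EB4 to EB8 was smaller in KO than in WT. This comparison was added after the values were seen. Neither the step from EB4 to EB5 nor that from EB5 to EB8 gave a limma call for such a difference. The difference in log2 change was -5.90 for Pax7, where WT went from 4.38 and 2.14 to 793 and 1012 normalised read counts and KO from 8.18 and 12.8 to 74.9 and 21.3. It was -5.48 for Pax8, where WT went from 12.1 and 15.0 to 387 and 528 and KO from 32.7 and 60.0 to 16.9 and 55.4. It was -4.00 for Pax3, where WT went from 11.0 and 20.4 to 1447 and 1373 and KO from 7.01 and 10.2 to 79.1 and 33.0. Part of the differences for Pax7 and Pax8 lay at the start, as their KO values at EB4 were above those of WT.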

How the results depend on the processing

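The number of Pax genes called lower in KO at EB8 was 6 under most alternatives and 5 without any 1 of the EB8 libraries, with a pseudocount of 0.1 and with a mean of at least 50, where Pax5 was not tested. Of the 29 called changes, 436 alternatives kept the call, 37 lost it and 0 turned its direction. Fitting only the compared groups gave 0 calls for KO against WT at EB5 and 0 for EB5 against EB4 in KO, where DESeq2 gave 2. It also ended the calls for Pax3 in the difference from EB4 to EB8 (adjusted p = 0.0527), Pax3 from EB4 to EB8 in KO (0.0689) and Pax7 from EB4 to EB5 in WT (0.0688). Single calls were also lost for Pax3 from EB5 to EB8 in WT with no filter (0.0545), Pax6 from EB4 to EB8 in KO with quantile normalisation (0.0535) and Pax2 in KO against WT at EB8 with a pseudocount of 0.1 (0.0616). For the difference from EB5 to EB8, a pseudocount of 5 and DESeq2 each gave 3. For the difference from EB4 to EB8, a pseudocount of 5, DESeq2 and the replicate block within genotype each gave 5. Leaving out 1 library gave 0 to 2 calls for KO against WT at EB5, 2 to 4 for EB5 against EB4 and 3 to 5 for EB8 against EB5 in WT, 0 to 0 for EB5 against EB4 and 0 to 4 for EB8 against EB4 in KO, and 1 to 4 for the difference from EB4 to EB8. The replicate block over both genotypes left each count of Pax genes as it was (6 for KO against WT at EB8, 2 at EB5), also with the KO numbers crossed.

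Signs turned only for changes that were not called. These were the Pax6 difference from EB5 to EB8 (0.035 with DESeq2, 0.0508 with edgeR, 0.042 with upper-quartile rescaling, -0.70 to 0.62 without 1 library), Pax6 from EB5 to EB8 in WT (-0.19 without WT EB5 replicate 1 to 0.91 without replicate 2), Pax5 from EB4 to EB8 in KO (-0.0073 with quantile normalisation), Pax8 from EB4 to EB8 in KO (0.31 without KO EB8 replicate 1 to -1.34 without replicate 2) and Pax8 in KO against WT at EB5 (0.62 without WT EB5 replicate 1 to -0.87 without replicate 2). Upper-quartile rescaling moved the median of all genes at EB8 from -0.03 to 0.11 and the share of calls that were lower from 54.6% to 41.5%, while the 6 Pax changes ran from -5.23 to -3.11, against -5.35 to -3.25. The cause of these shifts was not tested. Depth limits Pax5 in KO and, before retinoic acid, Pax2 and Pax7.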
